A study of Homo sapiens with 14 samples.

Results

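The Hippo pathway genes described here are 10 of the 18398 genes measured on the arrays. The rule that picks them goes by gene name and uses no measured value. They are the kinases STK3, STK4, LATS1 and LATS2, the coactivators YAP1 and WWTR1, the DNA-binding partners TEAD1 and TEAD4, and the target genes CCN1 and CCN2. Each had 1 probe set in the table, matched through its gene symbol.

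RNA came from OVCAR-3, an established human ovarian carcinoma cell line, and was measured on 14 Affymetrix whole-transcript arrays. The first group, called selected, holds 5 arrays of the resistant sublines R1, R3, R5, R6 and R7 at passage 5, grown in 4 µM PHA-533533, a CDK2 inhibitor. The second, called stable, holds 5 arrays of the same sublines at passage 10 or later in 0 µM inhibitor. The third is 4 arrays of parental cells in medium with 0 µM inhibitor. Pellets came from subconfluent cultures. The sublines were derived independently, and each gave 1 array per state. Passage and inhibitor differ together between selected and stable arrays and cannot be told apart. Between selected and parental arrays inhibitor and resistance differ together, and that comparison cannot tell them apart either. No passage is given for the parental cells. Whether the 4 parental arrays stem from separate cultures is not stated in the labels. The p-values of comparisons with parental cells then rest in part on parental spread that may be partly or wholly technical. Levels are log2 signal, with base 2 taken from the range of the values. Levels of different genes are not compared, because each probe set has a scale of its own.

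In the Hippo pathway STK3 and STK4 (the kinases MST2 and MST1) phosphorylate and activate LATS1 and LATS2, which in turn phosphorylate YAP1 and WWTR1 (TAZ) and keep them out of the nucleus. Unphosphorylated YAP1 and WWTR1 enter the nucleus and bind the TEAD factors, which bring them to DNA. CCN1 (CYR61) and CCN2 (CTGF) encode secreted matricellular proteins and are the target genes most often read as a sign of YAP1 and WWTR1 activity. In epithelial cells the pathway is known to respond to cell density, adhesion and actin tension.

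The TEAD factors recognise the DNA letters GGAATG, and the promoter windows of the pathway genes are shown because CCN2 is a textbook case. RefSeq windows (build GRCh38.p14, 250 bases before to 50 after the start site) were at hand for 6 of the 10 genes, namely CCN2, LATS1, LATS2, STK4, WWTR1 and YAP1. These 6 genes had 8 windows, and the counts over all windows below are of windows, not genes. GGAATG was searched on both strands. It was found in the windows of 3 genes, with 3 matches before the start of CCN2, 1 before the start of YAP1 and 1 after the start of LATS2. Of 35116 windows of the same length, 4928 held at least 1 match and 45 (0.128%) held 3 or more. A match is a description of letters and no measure of binding. The sequences below are 5′ to 3′ on the gene's own strand, with GGAATG in capitals. CCN2 is the minus strand of chr6:131951373-131951622 (the 250 bases before the start site), YAP1 the plus strand of chr11:102110255-102110320 and LATS2 the minus strand of chr13:21061560-21061589.
CCN2: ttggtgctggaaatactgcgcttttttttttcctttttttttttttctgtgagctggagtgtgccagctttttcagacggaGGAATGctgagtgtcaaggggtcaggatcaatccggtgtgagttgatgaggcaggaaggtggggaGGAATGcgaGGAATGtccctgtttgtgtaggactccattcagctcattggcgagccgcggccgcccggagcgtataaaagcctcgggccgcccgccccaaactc
YAP1: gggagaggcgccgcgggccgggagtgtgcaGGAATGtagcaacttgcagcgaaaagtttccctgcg
LATS2: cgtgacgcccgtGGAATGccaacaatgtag
The first bases of the CCN2 matches lie at -169, -104 and -95 from the start site, so the last 2 stand close together. That of YAP1 lies at -162 and that of LATS2 at 10.

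One parental array stood apart. Replicate 3 gave the lowest parental signal for 9 of the 10 genes, against 39.1% of all genes and 56.2% of genes at or above the 40th percentile of mean signal, where all 10 lie. It had the highest mean of the 340 olfactory receptor genes, 6.71, where the other arrays lay between 6.06 and 6.70. These receptors are silent in most tissues, and their mean serves here as a measure of background signal. It ranged from 6.06 to 6.60 in selected, 6.18 to 6.70 in stable and 6.16 to 6.71 in parental arrays. The signal of all 10 genes correlated negatively with it over the 14 arrays, from -0.13 for CCN1 to -0.74 for LATS1, where the median was -0.096 over all genes and -0.42 over those at or above the 40th percentile of mean signal. These arrays share sublines and processing, so the correlations are descriptions. The plot of signal against the olfactory receptor mean shows the pattern for 4 genes, and results are given below with this mean as a covariate and without replicate 3 where they rest on it. The 16 markers of serous ovarian epithelium averaged 10.34 to 10.73 in selected, 10.17 to 10.64 in stable and 10.39 to 10.54 in parental arrays. Of them 1, ELF3, was called higher in selected against parental cells (adjusted p = 0.0196 by limma), as were 5.03% of all genes. There 12 of 16 lay above 0 with a median of 0.16. With subline as a block, where 4.92% of all genes were called in either direction, CDH1 (adjusted p = 0.0384) and ELF3 (adjusted p = 0.0396) were called higher in selected against stable cells. The part of these markers in the results below was not tested. The 10 fibroblast markers averaged 6.54 to 6.74 in selected, 6.55 to 6.78 in stable and 6.57 to 6.85 in parental arrays, and none of them was called in any comparison.

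**Figure D1:**
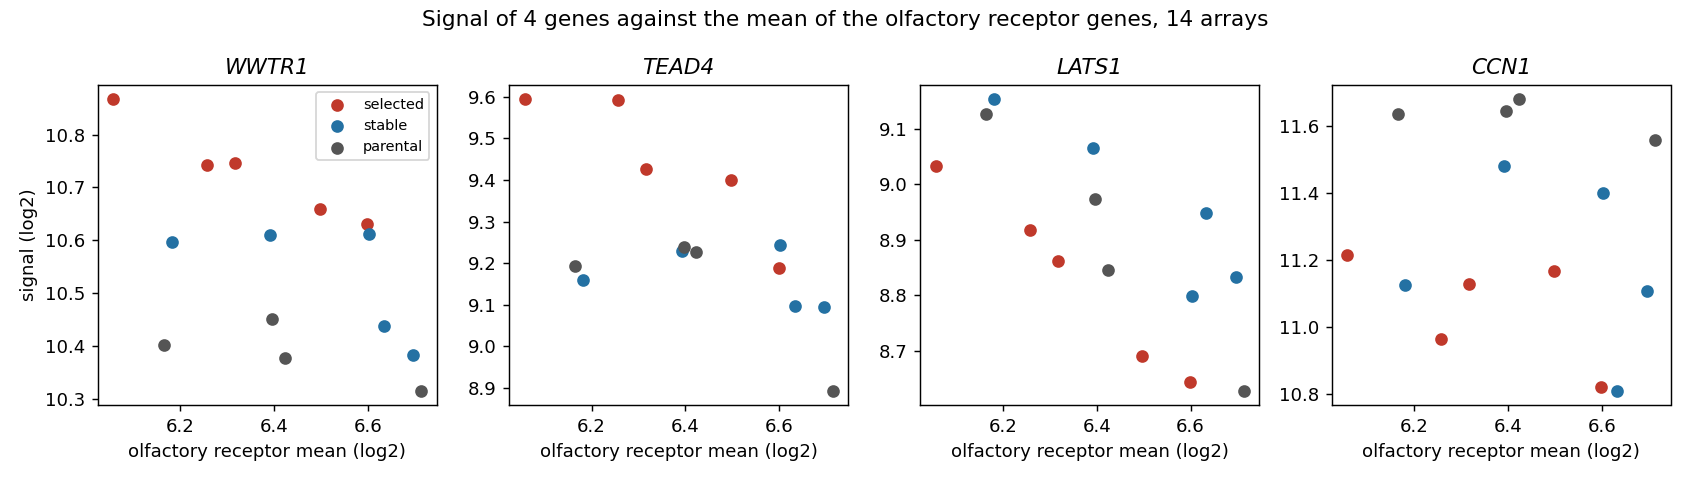
Signal of WWTR1, TEAD4, LATS1 and CCN1 (log2, vertical axis) against the mean of 340 olfactory receptor genes (log2, horizontal axis), 1 point per array, with 5 selected, 5 stable and 4 parental arrays. LATS1 falls as the mean rises (r = -0.74), while the selected WWTR1 points lie above and the selected CCN1 points below the parental ones along the range they share.

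In selected against parental cells 2 of the 10 genes were called by limma at an adjusted p under 0.05, in opposite directions. The coactivator WWTR1 was higher by 0.34 (SE 0.07, adjusted p = 0.0164), a 1.27-fold difference, and the target CCN1 was lower at -0.57 (SE 0.09, adjusted p = 0.00427), or 0.674 of the parental level. Among all genes 6.92% were called in this comparison, 5.03% higher and 1.89% lower, so the share of the 10 called is not itself a result. The median absolute difference was 0.27 over the 10 genes and 0.097 over all genes. All 10 lie at or above the 40th percentile of mean signal, while all genes include dim ones. These medians are therefore not matched for signal and are not compared further. In stable against parental cells 0 of the 10 were called, against 0.00544% of all genes (1 of 18398 by limma, and 1120 at an unadjusted p under 0.05). Of the 10 genes CCN1 (adjusted p = 0.439) and CCN2 (adjusted p = 0.575) had an unadjusted limma p under 0.05 there. In selected against stable cells 0 of the 10 were called by limma, against 2.16% of all genes, and 0 with subline as a block, against 4.92%. The unadjusted limma p was under 0.05 there for STK3, STK4, YAP1, WWTR1 and TEAD4, and for 2809 of all 18398 genes. On these bulk arrays fewer cells expressing a gene and less RNA per cell cannot be told apart.

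**Figure D2:**
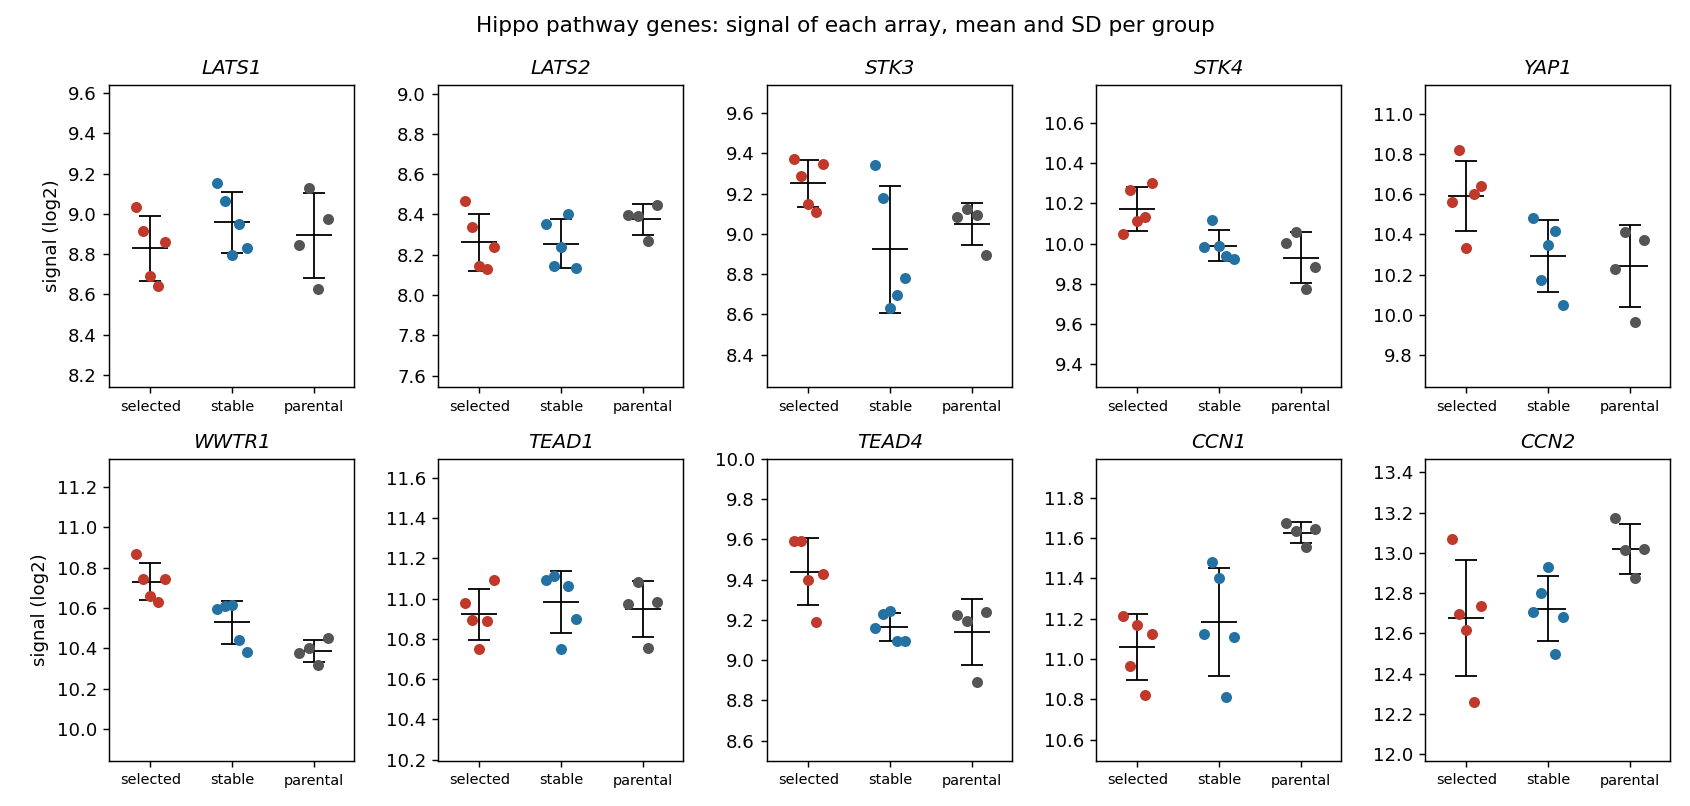
Signal of the 10 genes (log2) in 5 selected, 5 stable and 4 parental arrays, 1 point per array, with the group mean and SD as bars and the same height of scale (1.5 log2 units) in every panel. WWTR1 in selected arrays lies wholly above parental, from 10.63 upward, and CCN1 in selected and stable arrays wholly below it, from 11.48 downward.

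**Figure D3:**
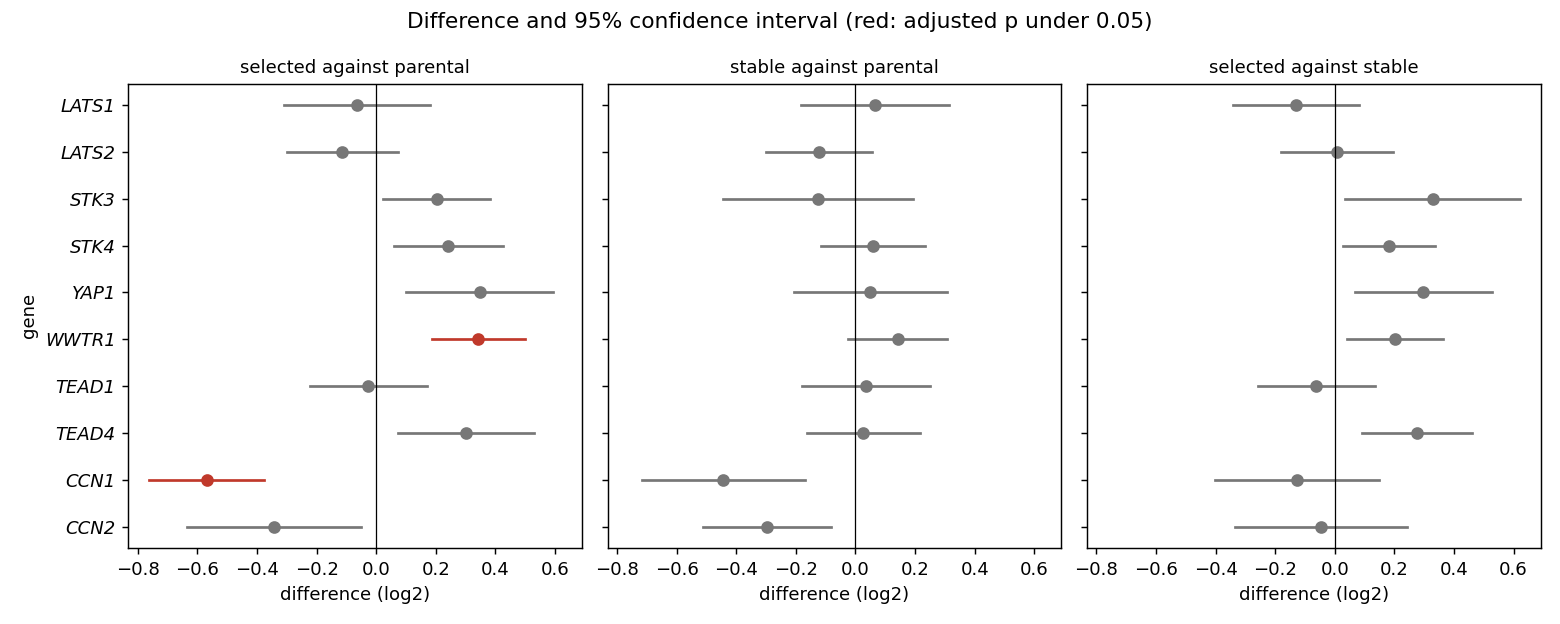
Difference between groups (log2, horizontal axis) with its 95% confidence interval for the 10 genes in selected against parental, stable against parental and selected against stable. Red marks an adjusted p under 0.05, reached by WWTR1 at 0.34 and CCN1 at -0.57 in selected against parental.

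The upstream kinases STK3 and STK4 were not called in any comparison. STK3 (probe set 8151967) read 9.37, 9.29, 9.15, 9.11 and 9.35 in selected R1, R3, R5, R6 and R7, 9.34, 9.18, 8.63, 8.70 and 8.78 in the stable arrays in the same order, and 9.08, 9.12, 9.10 and 8.90 in parental replicates 1 to 4. Its stable arrays thus split, with R1 and R3 above all parental arrays and R5, R6 and R7 below them, while the selected arrays overlapped parental by the array of R6 alone. STK3 differed by 0.20 (95% interval 0.023 to 0.38, adjusted p = 0.181) in selected against parental, by -0.13 (-0.44 to 0.19, adjusted p = 0.999) in stable against parental and by 0.33 (0.035 to 0.62, adjusted p = 0.257) in selected against stable. STK4 (probe set 8062908) ranged from 10.05 to 10.30 in selected, 9.93 to 10.12 in stable and 9.78 to 10.06 in parental arrays. Its difference was 0.24 (0.059 to 0.43, adjusted p = 0.115) in selected and 0.060 (-0.11 to 0.23, adjusted p = 0.999) in stable cells against parental.

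The LATS kinases, which act directly on the coactivators, had group means closer together than the spread within groups for LATS1, and overlapping groups for both. LATS1 (probe set 8130116) ranged from 8.64 to 9.03 in selected, 8.80 to 9.15 in stable and 8.63 to 9.13 in parental arrays. LATS2 (probe set 7970498), itself a known target of YAP1, ranged from 8.13 to 8.46 in selected, 8.13 to 8.40 in stable and 8.27 to 8.45 in parental arrays. All 3 groups overlapped for both genes. In selected against parental LATS1 differed by -0.064 (95% interval -0.31 to 0.18, adjusted p = 0.828) and LATS2 by -0.11 (-0.30 to 0.072, adjusted p = 0.552). In stable against parental LATS1 differed by 0.066 (-0.18 to 0.31, adjusted p = 0.999) and LATS2 by -0.12 (-0.30 to 0.056, adjusted p = 0.974). A change larger than 0.31 in LATS1 or 0.30 in LATS2 lies outside these intervals. LATS1 followed the olfactory receptor mean most closely of the 10 genes, and adjusted for that mean it was called lower in selected against stable cells, at -0.24 (adjusted p = 0.0411), where the value without it was -0.13 (adjusted p = 0.590).

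Of the coactivators WWTR1 (probe set 8091422) read 10.87, 10.74, 10.66, 10.63 and 10.75 in selected R1, R3, R5, R6 and R7, 10.60, 10.61, 10.61, 10.44 and 10.38 in the stable arrays, and 10.38, 10.40, 10.32 and 10.45 in parental replicates 1 to 4. All selected arrays lay above all stable and all parental ones, while stable R6 and R7 lay within the parental range. Means were 10.73 ± 0.092 (SD, n = 5) in selected, 10.53 ± 0.11 (SD, n = 5) in stable and 10.39 ± 0.056 (SD, n = 4) in parental cells. Groups did not overlap, with selected higher, for 6.81% of all genes against parental and for 2.83% against stable. Stable against parental gave 0.14 (95% interval -0.025 to 0.31, adjusted p = 0.876) and selected against stable 0.20 (0.041 to 0.36, adjusted p = 0.199), so the order selected, stable, parental is borne out by a test only between its ends. The call of WWTR1 held in all 19 alternatives, with values of 0.26 to 0.37 and adjusted p of 0.00422 to 0.0497. Among the 19, leaving out R7 and leaving out its selected array are the same fit here, so they are not separate checks. It was 0.32 (adjusted p = 0.00422) adjusted for the olfactory receptor mean and 0.32 (adjusted p = 0.0416) without parental replicate 3.

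YAP1 (probe set 7943398), the paralog of WWTR1, differed from parental by as much but with a wider spread. It read 10.56, 10.82, 10.33, 10.60 and 10.64 in selected R1, R3, R5, R6 and R7, 10.48, 10.18, 10.35, 10.42 and 10.05 in the stable arrays, and 10.23, 10.41, 9.96 and 10.37 in parental replicates 1 to 4. Selected R5 alone lay within the parental range, and replicate 3 was the lowest of all 14. The difference in selected against parental was 0.35 (SE 0.11, 95% interval 0.0996 to 0.59, adjusted p = 0.0939) and did not pass. It passed in 1 of 19 alternatives, without the selected array of R5 (0.41, adjusted p = 0.0472). Without parental replicate 3 the difference was 0.25, the smallest of the 19. Adjusted p by limma ran up to 0.228 over these alternatives. Stable against parental gave 0.050 (-0.21 to 0.31, adjusted p = 0.999) and selected against stable 0.30 (0.067 to 0.53, adjusted p = 0.182).

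Neither TEAD factor was called. TEAD1 (probe set 7938544) ranged from 10.75 to 11.09 in selected, 10.75 to 11.11 in stable and 10.76 to 11.08 in parental arrays, nearly the same span in each group. Its difference from parental was -0.026 (95% interval -0.22 to 0.17, adjusted p = 0.920) in selected and 0.035 (-0.18 to 0.25, adjusted p = 0.999) in stable cells. TEAD4 (probe set 7953150) read 9.59, 9.59, 9.40, 9.19 and 9.43 in selected R1, R3, R5, R6 and R7, 9.16, 9.23, 9.24, 9.10 and 9.09 in the stable arrays, and 9.23, 9.19, 8.89 and 9.24 in parental replicates 1 to 4. Selected arrays other than R6 lay above every stable and parental array, but the differences of 0.30 against parental (SE 0.10, adjusted p = 0.113) and 0.28 against stable (SE 0.08, adjusted p = 0.128) did not pass. Against parental TEAD4 was called in 2 of 19 alternatives, without the selected array of R6 (0.36, adjusted p = 0.0464) and adjusted for the olfactory receptor mean (0.25, adjusted p = 0.0364). Without parental replicate 3, its outlying array, the difference was 0.22 (adjusted p = 0.272).

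CCN1 (probe set 7902687) was lower in selected cells, and its groups did not overlap with parental in either state. It read 11.21, 10.96, 11.17, 10.82 and 11.13 in selected R1, R3, R5, R6 and R7, 11.12, 11.48, 11.40, 10.81 and 11.11 in the stable arrays, and 11.68, 11.63, 11.56 and 11.64 in parental replicates 1 to 4. Every selected and every stable array lay below the lowest parental one. Means were 11.06 ± 0.16 (SD, n = 5) in selected, 11.18 ± 0.27 (SD, n = 5) in stable and 11.63 ± 0.052 (SD, n = 4) in parental cells. Among all genes 2.96% had selected arrays wholly below parental and 1.42% had stable arrays wholly below. In stable cells the difference was -0.44 (SE 0.12, 95% interval -0.72 to -0.17, adjusted p = 0.439), which did not pass, and selected against stable gave -0.13 (-0.40 to 0.15, adjusted p = 0.704). The selected call held in all 19 alternatives, with values of -0.64 to -0.51 and adjusted p of 0.000768 to 0.0216. It was -0.59 (adjusted p = 0.00135) adjusted for the olfactory receptor mean.

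CCN2 (probe set 8129562), whose promoter is printed above, was nearer to parental. It read 13.07, 12.70, 12.62, 12.26 and 12.74 in selected R1, R3, R5, R6 and R7, 12.71, 12.80, 12.93, 12.50 and 12.68 in the stable arrays, and 13.17, 13.01, 12.87 and 13.02 in parental replicates 1 to 4. Selected R1 and stable R5 lay within the parental range and the other 8 resistant arrays below it. The differences from parental were -0.34 (SE 0.13, 95% interval -0.64 to -0.051, adjusted p = 0.163) in selected and -0.30 (SE 0.10, -0.51 to -0.084, adjusted p = 0.575) in stable cells, and neither passed. Selected against parental was called in 3 of 19 alternatives, without the selected array of R1 (-0.44, adjusted p = 0.0422), with array weights (-0.42, adjusted p = 0.0366) and adjusted for the olfactory receptor mean (-0.41, adjusted p = 0.0190). It was not called in the other 16, with adjusted p by limma up to 0.357. Without the selected array of R6, its lowest, the difference was -0.24.

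Within sublines 4 of the 10 genes, STK3, STK4, WWTR1 and TEAD4, were higher in the selected than in the stable array of all 5 pairs. Of all genes 19.1% had the same direction in all 5 pairs. The pair differences of WWTR1 were 0.27, 0.13, 0.047, 0.19 and 0.36 in R1, R3, R5, R6 and R7. Those of STK3 ran from 0.030 in R1 to 0.57 in R7. R7 had the largest pair difference for STK3, STK4 and WWTR1 (0.37 for STK4). The olfactory receptor mean went the opposite way to these 4 genes in all 5 pairs. It read 6.06 in selected and 6.18 in stable R1, and 6.26 and 6.39 in R3. In the same order it read 6.50 and 6.60 in R5, and 6.60 and 6.63 in R6. It differed most in R7, at 6.32 and 6.70. The part of this mean in the shared direction was not tested beyond the fits with it as a covariate. With subline as a block and this mean as a covariate the difference of WWTR1 was 0.10 (adjusted p = 0.853), where the block alone gave 0.20 (adjusted p = 0.152). CCN1 and CCN2 moved both ways, with CCN1 at -0.52 in R3 and 0.090 in R1. CCN2 was lower in selected R5 (12.62) than in stable R5 (12.93), and its difference was 0.36 in R1.

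**Figure D4:**
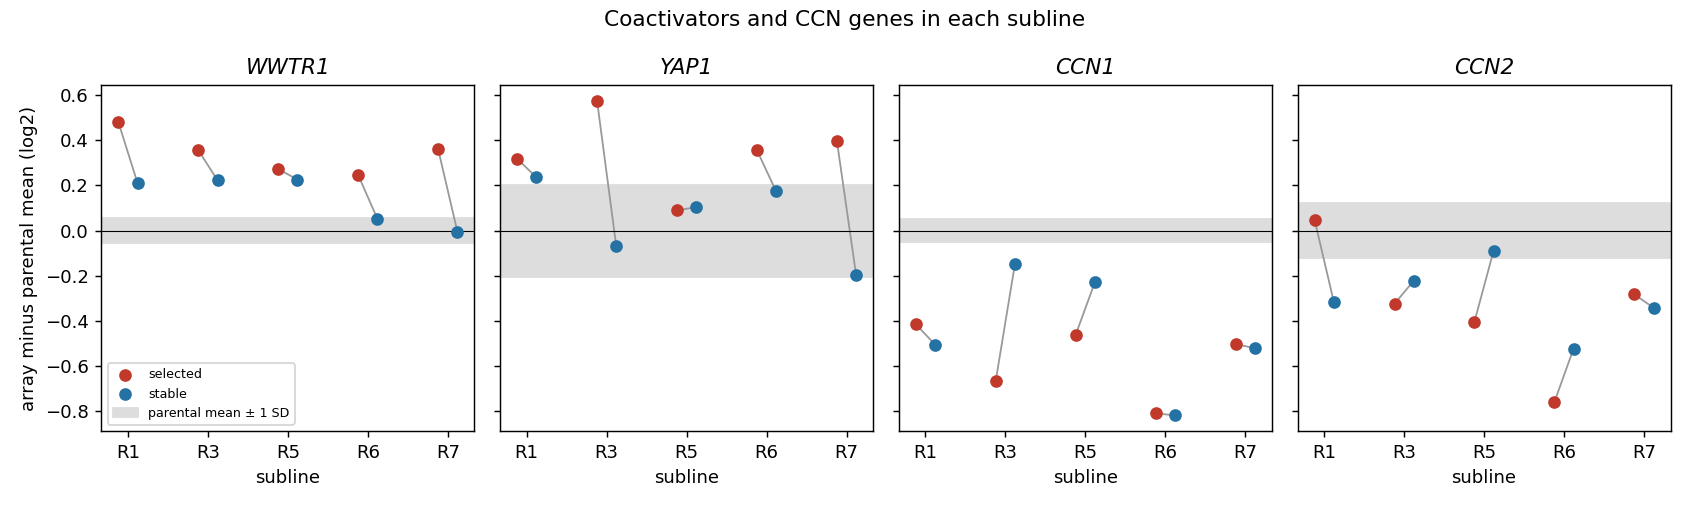
Signal of WWTR1, YAP1, CCN1 and CCN2 in each subline as the difference from the parental mean (log2), with the selected array left and the stable array right of each pair and the parental mean ± 1 SD as a grey band (n = 4). CCN1 lies below the band in all 10 resistant arrays, at its lowest in both arrays of R6.

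Taken subline by subline against parental, with both arrays of a subline together, none of the 10 genes was called in any subline by limma. Of all genes 0.196% were called in R3, 0.0598% in R5 and 0% in R1, R6 and R7. CCN1 was lowest in R6, at -0.81 (SE 0.13, adjusted p = 0.0690), and nearest to parental in R5, at -0.34 (SE 0.13, adjusted p = 0.591). CCN2 was lowest in the same subline, at -0.64 (SE 0.13, adjusted p = 0.157), and nearest in R1, at -0.13 (SE 0.13, adjusted p = 0.542). WWTR1 ran from 0.15 in R6 (adjusted p = 0.865) to 0.35 in R1 (adjusted p = 0.206), each with SE 0.12. None of the 10 genes was called between sublines by limma's F test. With 2 arrays per subline this test cannot show that the sublines are alike. Adjusted p was lowest for STK3 (0.319), with subline means from 8.89 in R5 to 9.36 in R1, and 0.384 for CCN1 and 0.383 for CCN2, whose subline means spanned 0.47 and 0.51. Between sublines 0.12% of all genes were called.

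Around these 10 genes the Hippo scaffolds and upstream regulators had 4 of 50 measured genes higher and 0 lower in selected against parental cells, where 5.03% of all genes were called higher and 1.89% lower. Their median difference was 0.074, beside -0.013 over all genes, and 35 of the 50 were above 0. FAT4, an atypical cadherin related to Fat, a receptor of the pathway in Drosophila, was higher by 0.91 (SE 0.15, adjusted p = 0.00540). It read 9.28, 8.64, 8.86, 8.43 and 9.00 in selected R1, R3, R5, R6 and R7, 8.09, 7.36, 7.84, 8.16 and 7.89 in the stable arrays, and 8.05, 8.06, 7.82 and 7.79 in parental replicates 1 to 4. Selected arrays lay above all others. Against stable cells, where 2.16% of all genes were called, FAT4 was also the one gene of the list called (0.97, SE 0.18, adjusted p = 0.0221). That call was lost in 6 of 22 alternatives, among them without R7 (adjusted p = 0.154) and with the block and the olfactory receptor mean together (adjusted p = 0.592). STRN3, a subunit of the phosphatase complex that dephosphorylates STK3 and STK4, was higher by 0.53 (SE 0.11, adjusted p = 0.0150). SAV1, the scaffold that joins STK3 and STK4 to LATS1 and LATS2, was higher by 0.49 (SE 0.12, adjusted p = 0.0288), a call lost in 9 of 19 alternatives (adjusted p up to 0.0989). WWC3, of the KIBRA family that activates LATS1 and LATS2, was higher by 0.41 (SE 0.08, adjusted p = 0.0164). The count of 4 was 1 without parental replicate 4 and 6 without the selected array of R6. With subline as a block STRN3 (0.39, adjusted p = 0.0373), AMOT (0.44, adjusted p = 0.0386) and FAT4 (0.97, adjusted p = 0.0112) were called higher in selected against stable cells. Of all genes 4.92% were called with the block, in either direction. AMOT encodes a junctional protein that binds YAP1. In stable against parental cells 0 of the 50 were called, and the smallest p belonged to the kinases STK38 (0.26, adjusted p = 0.651) and STK24 (-0.27, adjusted p = 0.820).

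Of the other TEAD and VGLL genes, which share or compete for the same interface, 0 of 6 were called in the main limma fit of any comparison. Adjusted for the olfactory receptor mean, TEAD2 was called lower in selected against parental cells (-0.28, adjusted p = 0.0261 by limma). VGLL3 at 0.12 (adjusted p = 0.441) and TEAD2 at -0.20 (adjusted p = 0.489) had the smallest p in selected against parental cells, VGLL1 at -0.16 (adjusted p = 0.974) in stable against parental and VGLL1 at 0.26 (adjusted p = 0.357) in selected against stable cells. Of 24 other target genes of YAP1 and WWTR1 measured, 0 were higher and 2 lower in selected against parental cells, where 5.03% of all genes were called higher and 1.89% lower. The median difference of the 24 was 0.035, beside -0.013 over all genes. The 2 were LGALS1, the lectin galectin-1, at -0.60 (SE 0.14, adjusted p = 0.0243), and the receptor tyrosine kinase AXL, at -0.46 (SE 0.11, adjusted p = 0.0327). AXL read 7.66, 7.89, 7.97, 7.60 and 7.39 in selected R1, R3, R5, R6 and R7, 7.79, 8.72, 8.43, 7.79 and 8.19 in the stable arrays, and 8.26, 8.06, 8.22 and 8.12 in parental replicates 1 to 4. The selected arrays of AXL lay below all parental ones, and its stable arrays lay on both sides of them. AXL lost its call in 9 of 19 alternatives and LGALS1 in 6. The count of 2 lower was 0 when parental replicate 1, parental replicate 4 or the selected array of R7 was dropped and in both fits of all 14 arrays, and it was 6 under quantile normalization and adjusted for the olfactory receptor mean. In stable against parental cells 0 of the 24 were called, with the smallest p for TGFB2 (-0.48, adjusted p = 0.467) and TNFRSF12A (0.40, adjusted p = 0.492). TGFB2 was called there in 1 of 19 alternatives, with array weights (-0.52, adjusted p = 0.0343 by limma). With subline as a block CRIM1 (-0.34, adjusted p = 0.0404) and LGALS1 (-0.47, adjusted p = 0.0370) were called lower in selected against stable cells, where 0 were called without it. Of all genes 4.92% were called with the block and 2.16% without it, in either direction.

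Among the other CCN genes CCN3 went the opposite way to CCN1. It was higher in selected against parental cells by 0.55 (SE 0.09, adjusted p = 0.00662), 1 of the 4 measured, and the other 3 were not called. Of all genes 5.03% were called higher there. The call was lost in both fits of all 14 arrays (adjusted p = 0.0820 and 0.0742). CCN3 (NOV) is a secreted protein of the same family with growth-restraining activity in several cell types. It read 9.59, 9.32, 9.59, 9.47 and 9.77 in selected R1, R3, R5, R6 and R7, 9.05, 8.04, 8.93, 9.14 and 8.92 in the stable arrays, and 9.06, 9.03, 8.85 and 9.05 in parental replicates 1 to 4. All selected arrays lay above all others. Against stable cells the difference was 0.73 (SE 0.18, adjusted p = 0.0640), and it passed with subline as a block (adjusted p = 0.0214).

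CCN1 is also an immediate early gene, one of those induced within minutes of serum or growth factor stimulation, so the genes of that class are given beside it. In selected against parental cells 4 of 18 measured were lower and 0 higher, where 1.89% of all genes were called lower and 5.03% higher. The median of the 18 was -0.21, beside -0.013 over all genes. The 4 were DUSP1, a MAP kinase phosphatase, at -0.64 (SE 0.11, adjusted p = 0.00540), KLF6 at -0.38, EGR1 at -0.59 and FOSB at -0.92, transcription factors with adjusted p of 0.0358, 0.0364 and 0.0391. Of 19 alternatives KLF6 lost its call in 10, EGR1 in 9, FOSB in 7 and DUSP1 in 2. In stable against parental cells the median was -0.41 and 0 were called, with FOS at -2.48 (SE 0.30, adjusted p = 0.0524) and FOSB at -1.43 (SE 0.23, adjusted p = 0.0881) nearest. FOS was called there in 9 of 19 alternatives (adjusted p from 0.000745 to 0.236) and FOSB in 4 (adjusted p from 0.0165 to 0.328). In selected against stable cells FOS was higher by 1.94 (SE 0.26, adjusted p = 0.00900) and EGR1 by 0.97 (SE 0.22, adjusted p = 0.0476), 2 of 18, and 7 with subline as a block. Of all genes 2.16% were called there, and 4.92% with the block, in either direction. CCN1 was not called there in either fit. The call of EGR1 was lost in 14 of 22 alternatives (adjusted p up to 0.535) and that of FOS in 2, without R7 (adjusted p = 0.0802) and with the block and the olfactory receptor mean together (adjusted p = 0.535). EGR1 parted the parental arrays, at 12.27 and 12.14 in replicates 1 and 3 and 12.82 and 12.81 in replicates 2 and 4, a split that the 4 parental CCN1 values did not show. The part of this class in the CCN1 values was not tested. The count of 4 lower was 1 when parental replicate 2 or 4 or the selected array of R3, R5 or R7 was dropped and in both fits of all 14 arrays, and 6 without parental replicate 3. Of 13 contractile and cytoskeletal targets of SRF, a factor that responds to actin, 0 were called in selected against parental (FHL2 at 0.48, adjusted p = 0.0617, and ITGA5 at 0.24, adjusted p = 0.263), in stable against parental (TAGLN at -0.28, adjusted p = 0.685) or in selected against stable cells (ITGA5 at 0.47, adjusted p = 0.0781). FHL2 was called in selected against parental cells in 4 of 19 alternatives (adjusted p by limma from 0.0268 to 0.172). ITGA5, an integrin subunit, passed in selected against stable cells with subline as a block (adjusted p = 0.0373).

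**Figure D5:**
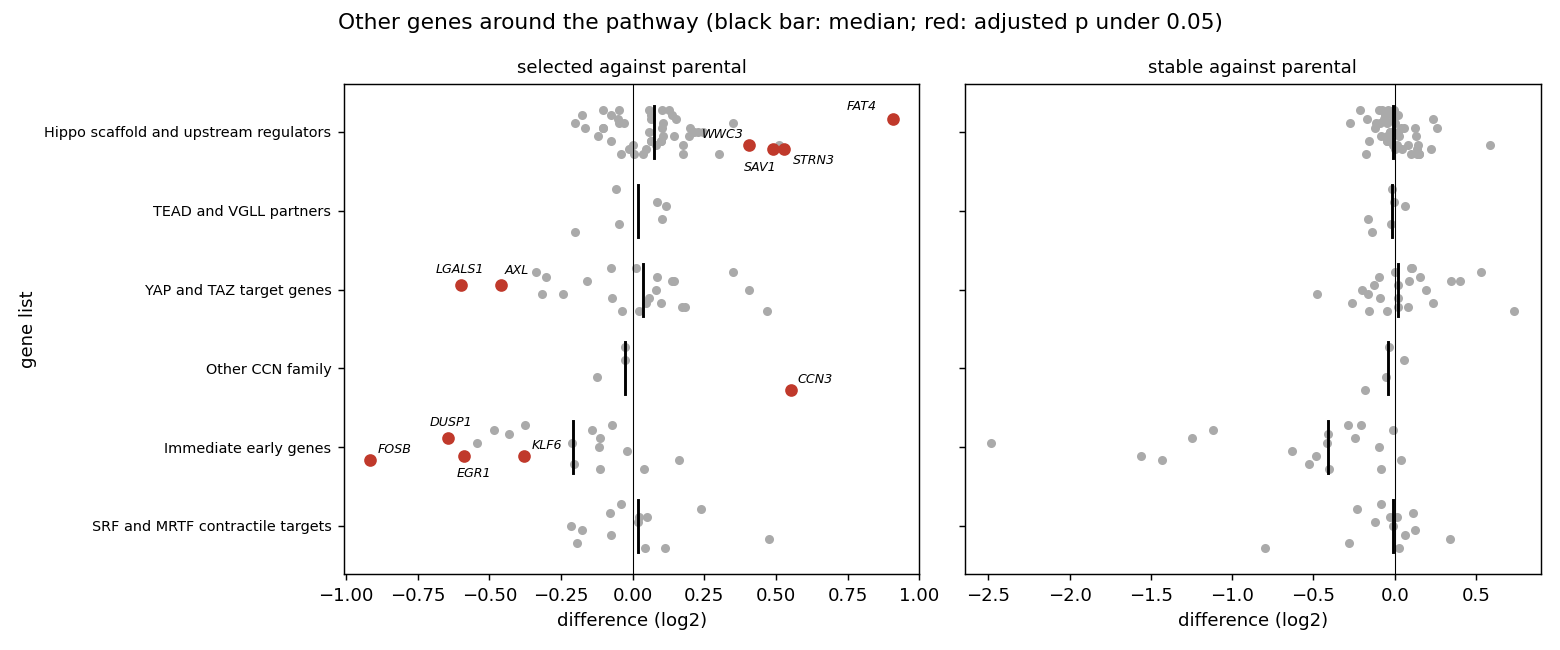
Difference from parental (log2, horizontal axis) of each measured gene of 6 lists around the pathway, for selected (left panel) and stable cells (right panel, on a wider scale), with black bars for medians and red points for an adjusted p under 0.05. FAT4, STRN3, SAV1, WWC3 and CCN3 lie above 0 and LGALS1, AXL, FOSB, DUSP1, EGR1 and KLF6 below it in selected cells, and no point is red in stable cells.

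Among the 10 genes themselves WWTR1 and TEAD4 had r = 0.85 over the 14 arrays, and YAP1 had r = 0.73 with WWTR1 and r = 0.74 with TEAD4. STK4 had r = 0.74 with YAP1, 0.72 with WWTR1 and 0.74 with TEAD4. CCN1 and CCN2 had r = 0.85 with each other, and CCN1 had r = -0.52 with YAP1 and r = -0.44 with WWTR1. LATS1 and TEAD1 had r = 0.79. Over 16975 named genes the pattern most like CCN1 was that of CCT4 (r = 0.92), a chaperonin subunit, followed by EIF3D (r = 0.91), a translation initiation factor, and the most opposed was MSANTD2 (r = -0.84). For CCN2 the nearest were NSMF (r = 0.93) and CACNB1 (r = 0.93), with TRIM69 opposed (r = -0.83). YAP1 was nearest to AFF1 (r = 0.96) and MADD (r = 0.95) and opposed to HAS3 (r = -0.88). LATS2 was nearest to ZNF346 (r = 0.91) and SIPA1L3 (r = 0.87) and opposed to DPY19L2P2 (r = -0.80). These are descriptions over 14 arrays that share groups, sublines and background signal, and the highest correlation in so wide a search is high in any case.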

How the data were processed

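The deposited values are one log2 signal per probe set and array. Per the labels' protocols, total RNA was labelled and hybridised by an Affymetrix whole-transcript protocol. How the authors corrected background and normalized, and the base of the logarithm, is not given in the sources used here. Base 2 fits the values, which run from 4.34 to 14.9. Of 32295 table rows 19148 carried 1 gene, 1376 several and 11771 none. Symbols were updated by gene ID through RefSeq (GRCh38.p14), which held 19118 of these rows, and the brightest row of each gene was kept, which left 18398 genes.

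Two-sided tests came from lmFit and eBayes of limma 3.58.1 (R 4.3.3). P-values were adjusted by Benjamini-Hochberg across the 18398 genes, and calls needed an adjusted p under 0.05. Each pair of groups was fitted on its own arrays. Sublines were set against parental in 1 fit of all 14 arrays as 6 groups, and against each other by an F test on the 10 resistant arrays, adjusted for growth condition. The deposited arrays give no counts, and their number limits the precision. Same-numbered selected and stable arrays come from the same subline by the labels. The correlation of their deviations from the group means was 0.64, 0.050, 0.37, 0.55 and -0.47 in R1, R3, R5, R6 and R7. Fits were tested on simulated data.

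The 10 genes, the gene lists and the alternatives were chosen with earlier results of these data known. Named beside the 10 are list genes that were called, at most 6 per list and comparison, or the 2 of smallest p where none was, and the genes most alike in pattern, leaving out uncharacterised, small RNA and olfactory receptor symbols. STRN3, AMOT, CRIM1, LGALS1 and ITGA5 under the block were named after their values were seen. Alternatives were a trended, robust variance, weights per array, normalization by quantiles or by the median, dropping genes below percentile 40 of mean signal, averaging a gene's rows, all 14 arrays in 1 fit with and without subline as a random effect, subline as a block, the olfactory receptor mean as a covariate, growth in the inhibitor as a further term or dropped, both arrays of R7 left out, and each array left out.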

Additional observations from a re-analysis of the deposited data

Results flagged for a closer look

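Of 30 groups examined (10 genes in 3 groups) 1 held an array that lay apart by Dixon's gap over range, and chance alone marks about 1 in 20 groups. It was parental replicate 3 for TEAD4, at 8.89 with the next lowest parental array at 9.19. The same array had the highest olfactory receptor mean of all 14. Its part in the TEAD4 value was not tested beyond the fits with that mean as a covariate and without the array.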

How the results depend on the processing

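The calls of WWTR1 and CCN1 in selected against parental cells held in all 19 alternatives. None of the 10 was called in stable against parental cells in any of 19 alternatives. Nor was any called in a single subline or between sublines in the 7 alternatives run for each. In the comparisons with parental, leaving out R7 and leaving out its array are the same fit, so a call lost there counts under both. Each of the 10 genes had 1 probe set, so averaging a gene's rows left their differences as they were. In selected against parental cells 4 of the 10 were called adjusted for the olfactory receptor mean, and 2 to 3 with 1 array left out. In selected against stable cells 1 of the 10 was called with array weights (STK3 at 0.46, adjusted p = 0.0220 by limma), 1 with subline as a random effect (TEAD4 at 0.28, adjusted p = 0.0445) and 1 adjusted for the olfactory receptor mean (LATS1). Counts over all genes moved more. Selected against parental had 1273 called, 2318 with the olfactory receptor mean, 621 without R7 and 517 to 1343 with 1 array left out. Stable against parental had 1 called, 5 with trended variance, 286 with array weights, 2 with quantile normalization or median centring, 4 without dim genes, 8 in 1 fit of all 14 arrays, 7 with subline as a random effect, 75 with the olfactory receptor mean and 1 to 26 with 1 array left out. Selected against stable had 397 called, 1480 with array weights, 680 in 1 fit of all 14 arrays, 1367 with subline as a random effect, 0 without R7 and 86 to 962 with 1 array left out. With the replicate block it had 906 called, and 0 with the block and the olfactory receptor mean together. The block changed the call of none of the 10 genes. The cause of these shifts was not tested. Arrays that lay apart numbered 1, and 2 with quantile normalization or median centring. The differences that changed sign were all uncalled. In selected against parental cells LATS1 ran from -0.15 to 0.013 and TEAD1 from -0.091 to 0.018 with 1 array left out. In stable against parental cells array weights gave LATS1 -0.031, YAP1 -0.010, TEAD1 -0.059 and TEAD4 -0.037. With 1 array left out LATS1 ran from -0.023 to 0.14, YAP1 from -0.044 to 0.11, TEAD1 from -0.029 to 0.093, TEAD4 from -0.055 to 0.060 and CCN3 from -0.26 to 0.013. In selected against stable cells LATS2 was -0.0075 with array weights, -0.040 with quantile normalization, -0.025 with median centring, -0.053 with the olfactory receptor mean, -0.12 with that mean and the block, -0.016 without R7 and -0.042 to 0.045 with 1 array left out. CCN2 ran from -0.14 to 0.057 with 1 array left out, and CCN4 was 0.026 with the block and the olfactory receptor mean. The number of arrays limits the precision.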
